A study of Mus musculus with 9 samples.

Results

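Transcripts of neurons and their axons were followed in Reissner's membrane, the thin cellular sheet of the cochlea that separates endolymph from perilymph. The 8 genes were chosen by name: the neurofilament genes Nefl, Nefm and Nefh, the neuronal microtubule genes Tubb3 and Stmn2, the axon growth gene Gap43, the synaptic gene Snap25 and the neuronal ubiquitin hydrolase gene Uchl1. Every probe set annotated to 1 of them was taken, which gave 11 of the 45101 probe sets on the array, and 8 of the 18193 genes that had a probe set with a single gene symbol. Tissue came from adult mice, with no strain or genotype named in the labels, and was dissected by hand from the cochlea. Explants were kept for 24 h with the synthetic glucocorticoid dexamethasone at 100 nM (dexamethasone), kept for 24 h without it (incubated), or put into RNA extraction at once (fresh). Each group had 3 arrays, lettered A to C. For dexamethasone arrays B and C the label gives the dose in mM, and 100 nM is the figure for array A and in the series description.

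Pools of membranes supplied 3 chips for each biological sample. The p-values therefore reflect only how far arrays of a group differ, which may be technical, and precision is limited by having 3 arrays a group. In such bulk RNA, fewer cells of a type and less RNA per cell cannot be told apart. Signals were linear intensities that had been scaled on each array to the same target of 500 over all probe sets. The median signal was 86.9 to 90.2 on dexamethasone arrays, 77.7 to 81.9 on incubated arrays and 107.4 to 108.4 on fresh arrays. A signal of 200 was taken as the working floor, because no detection calls were used. Where all 3 arrays of a group lay under 200, the change is given as "at least" the other group's mean over 200, and where both group means did, no fold is given. Differences are log2 differences of group means on the log2(signal + 32) scale with their standard errors. They come from a limma fit over 18913 probe sets (10242 genes) that reached 200 on at least 3 arrays. A gene is called at an adjusted p under 0.05. Nefl, Nefm, Nefh, Snap25, Stmn2 and Tubb3 passed this filter through the fresh arrays alone. Their direction against fresh tissue was thus fixed by the filter, and the adjusted p-values below are no separate support for it.

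Neurons hold most of their messenger RNA in the cell body, and axons carry a smaller share of it to distant endings. Neurofilaments are the intermediate filaments of axons, built from light, medium and heavy chains, and microtubules of neuron-specific tubulin run alongside them. In the cochlea the bodies of afferent neurons lie in the spiral ganglion, and their peripheral fibres run to the hair cells beneath the spiral limbus, to which Reissner's membrane is attached.

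All 3 neurofilament genes were bright in fresh membrane and lay far under 200 after culture, with or without dexamethasone. The light chain gene Nefl had signals of 9.3, 9.4 and 11.6 on dexamethasone arrays, 32.3, 10.6 and 47.2 on incubated arrays, and 6372, 6554 and 6495 on fresh arrays. Every fresh array lay above every cultured array, while the cultured groups overlapped. Nefl fell at least 32.4-fold in incubated against fresh tissue (adjusted p = 5.11e-12) and, by the same bound, in dexamethasone against fresh tissue (adjusted p = 2.16e-12). The second Nefl probe set had 19.9, 40.6 and 21.9 on dexamethasone arrays, 35.5, 20.2 and 1.2 on incubated arrays, and 2273, 2303 and 2039 on fresh arrays. Its fresh arrays again lay above all cultured ones, which overlapped, and it fell at least 11.0-fold in incubated against fresh tissue (adjusted p = 2.31e-10).

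The medium chain gene Nefm had 15.5, 27.2 and 35.1 on dexamethasone arrays, 41.5, 27.8 and 32.3 on incubated arrays, and 1961, 1843 and 1764 on fresh arrays. The fresh arrays again stood clear of the cultured ones, which overlapped with each other. Nefm fell at least 9.28-fold in incubated tissue (adjusted p = 1.65e-11) and in dexamethasone tissue (adjusted p = 1.02e-11), each against fresh. The heavy chain gene Nefh, whose protein has a long tail that projects from the filament, had 80, 79 and 85.2 on dexamethasone arrays, 27.7, 9.5 and 6.3 on incubated arrays, and 3126, 3783 and 3046 on fresh arrays. Nefh fell at least 16.6-fold in incubated tissue (adjusted p = 4.04e-12) and in dexamethasone tissue (adjusted p = 2.39e-11), each against fresh. For Nefh the 3 groups did not overlap, with dexamethasone arrays between incubated and fresh ones.

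**Figure D1:**
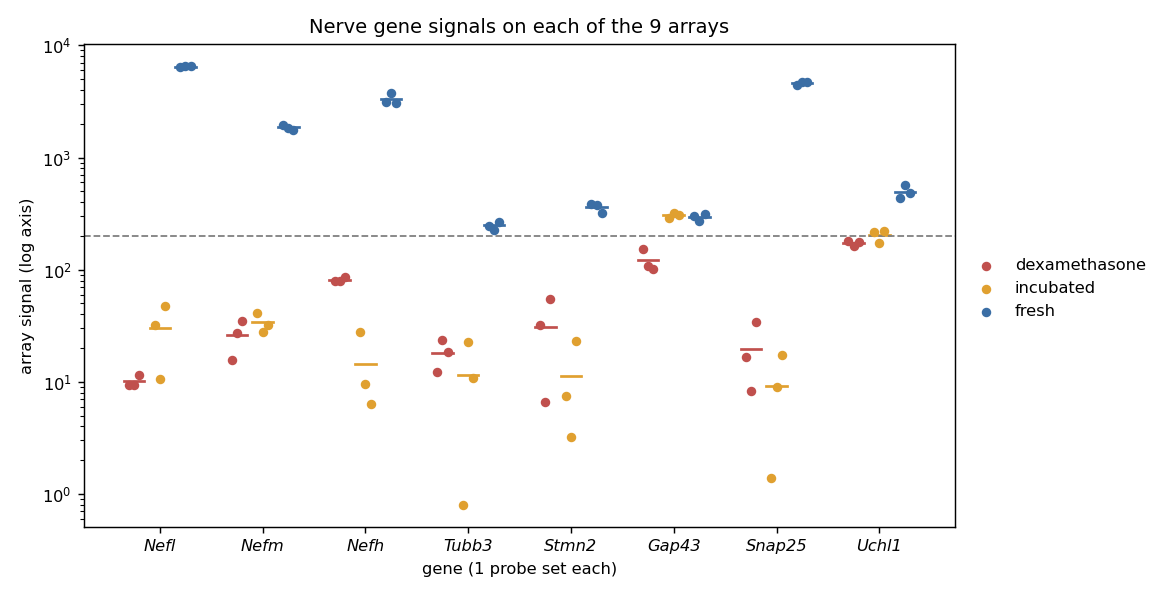
Array signal on a log axis for 1 probe set of each of the 8 nerve genes, with 1 point per array, a short line at each group's mean and a dashed line at the working floor of 200. Fresh arrays lay above all cultured arrays for every gene except Gap43, whose incubated (286 to 321) and fresh (269 to 316) arrays overlapped. For Nefl, Nefm, Nefh, Snap25, Stmn2 and Tubb3 the filter fixed this, since only their fresh arrays reached 200. The share of all genes without overlap was not computed.

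For the neuronal microtubule genes Tubb3 and Stmn2 the fresh signals lay near the floor of 200, so the bounds on their falls are small. Tubb3, the neuron-specific beta-tubulin, had 12.3, 23.8 and 18.3 on dexamethasone arrays, 0.8, 22.8 and 10.9 on incubated arrays, and 247, 228 and 268 on fresh arrays. Only the fresh arrays passed 200, so the filter fixed the direction of its fall, and the cultured groups overlapped. Tubb3 fell at least 1.24-fold in incubated tissue (adjusted p = 8.27e-08) and in dexamethasone tissue (adjusted p = 1.76e-07), each against fresh.

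Stmn2 encodes a stathmin that binds tubulin and is found in growing axons. Its first probe set had 31.9, 6.6 and 54.4 on dexamethasone arrays, 7.5, 3.2 and 23 on incubated arrays, and 383, 375 and 319 on fresh arrays. The second probe set had 26.6, 7.6 and 2.1 on dexamethasone arrays, 25.9, 7.3 and 30.1 on incubated arrays, and 308, 304 and 288 on fresh arrays. Both probe sets had the fresh arrays on top and cultured groups that overlapped. In incubated against fresh tissue Stmn2 fell at least 1.80-fold by the first probe set (adjusted p = 2.07e-07) and at least 1.5-fold by the second (adjusted p = 2.88e-07). In dexamethasone against fresh tissue the bounds were the same (adjusted p = 9.52e-07 and 1.02e-07).

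Of the 8 genes, 2 (Uchl1 and Tubb3) had a start region in the RefSeq table used here (GRCm38.p6), and both are shown because they belong to the group that fell and differ in the elements named below. Each is the 250 bases upstream of the annotated start on the plus strand, Tubb3 at chr8:123411303-123411552 and Uchl1 at chr5:66675871-66676120. Capitals mark every match to the motifs searched, on either strand.
Tubb3: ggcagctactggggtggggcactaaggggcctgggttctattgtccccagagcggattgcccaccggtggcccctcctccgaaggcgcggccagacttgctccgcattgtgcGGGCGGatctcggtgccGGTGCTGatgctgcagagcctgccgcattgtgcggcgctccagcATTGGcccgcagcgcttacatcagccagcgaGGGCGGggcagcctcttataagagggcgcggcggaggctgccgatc
Uchl1: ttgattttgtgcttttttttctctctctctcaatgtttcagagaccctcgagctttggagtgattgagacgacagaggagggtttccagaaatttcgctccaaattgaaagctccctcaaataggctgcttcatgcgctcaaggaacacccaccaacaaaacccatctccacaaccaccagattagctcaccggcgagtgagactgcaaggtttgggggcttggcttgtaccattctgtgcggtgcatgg
The search covered the TATA box TATAAA, the CCAAT box CCAAT, the GC box GGGCGG, the left part CAGCACC and right part GGACAGC of the RE1 element, which binds a repressor of neuronal genes, the hexamer AGAACA of glucocorticoid receptor sites and the cyclic AMP response core TGACG. In the same windows of 32851 promoters these were present in 12.4%, 33.8%, 32.7%, 5.73%, 5.28%, 16.1% and 17.8%, in that order. Tubb3 held 2 GC boxes, 138 and 46 bases upstream of the start, a left RE1 part on the minus strand 121 bases upstream and a CCAAT box on the minus strand 77 bases upstream. Its window had a GC content of 68.0% and 21 CG pairs. Uchl1 held none of the 7 motifs, with a GC content of 48.8% and 7 CG pairs, against a median GC content of 52.4% over all promoters. These matches describe the letters of the windows and no binding was measured.

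Snap25 encodes a membrane protein of the SNARE complex that drives fusion of synaptic vesicles. It had 16.7, 8.3 and 34.3 on dexamethasone arrays, 1.4, 8.9 and 17.3 on incubated arrays, and 4427, 4756 and 4740 on fresh arrays. The fresh arrays stood apart and the cultured groups overlapped. Snap25 fell at least 23.2-fold in incubated tissue (adjusted p = 5.91e-12) and in dexamethasone tissue (adjusted p = 7.65e-12), each against fresh. Its second probe set stayed under 200 on every array and was not tested, with 1.6, 1.6 and 11.2 on dexamethasone arrays, 12.1, 0.7 and 0.4 on incubated arrays, and 186, 178 and 163 on fresh arrays, so the fresh arrays were again the highest.

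Uchl1 encodes a deubiquitinating enzyme that is abundant in neurons. It had 181, 162 and 177 on dexamethasone arrays, 218, 174 and 221 on incubated arrays, and 432, 572 and 484 on fresh arrays. Its fresh arrays were all higher than its cultured arrays, with an incubated mean of 204 ± 26.2 against a fresh mean of 496 ± 70.8 (SD, n = 3), or 41.2%. Uchl1 fell by 1.16 ± 0.12 (log2 difference, SE) in incubated against fresh tissue (adjusted p = 2.15e-06) and fell at least 2.48-fold in dexamethasone against fresh tissue (adjusted p = 4.33e-07). Between the cultured groups the arrays overlapped, and the test was not passed (adjusted p = 0.196 for dexamethasone against incubated tissue). The fitted difference was -0.20 ± 0.12, but all 3 dexamethasone arrays lay under 200, so these fitted values are no measured size. Uchl1 was called lower in this comparison with median centring of the arrays (-0.31, adjusted p = 0.0435) and with scaling to the hybridization controls (-0.62, adjusted p = 8.21e-04). Of 4 other ubiquitin handling genes in incubated against fresh tissue, 2 fell and 2 rose, where 40.7% of all genes fell and 36.0% rose. Under median centring or hybridization-control scaling 3 of the 4 rose and none fell. Uchl5, a relative of Uchl1 found at the proteasome, rose by 0.93 ± 0.079 (adjusted p = 2.53e-07), though its second tested probe set was called in neither direction.

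Gap43 was the exception in culture alone. It encodes a growth cone protein known for its rise when axons regrow, and some glial cells also make it. Gap43 had 153, 108 and 102 on dexamethasone arrays, 286, 321 and 307 on incubated arrays, and 299, 269 and 316 on fresh arrays. Incubated and fresh arrays overlapped, and all 3 dexamethasone arrays lay below both. The difference between incubated and fresh tissue was 0.05 ± 0.13 (log2, SE; adjusted p = 0.767), with means of 305 ± 17.5 in incubated and 295 ± 23.4 in fresh arrays (SD, n = 3). It was called higher with median centring (0.37, adjusted p = 0.0177) and with scaling to the hybridization controls (0.35, adjusted p = 0.0197), settings that moved the median of all genes by a like amount, as given below.

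With dexamethasone Gap43 fell at least 1.52-fold against incubated tissue (adjusted p = 1.64e-05) and at least 1.47-fold against fresh tissue (adjusted p = 5.95e-06). The mean dexamethasone signal was 121 ± 28.0 (SD, n = 3). Gap43 was called lower in dexamethasone than in incubated tissue under all 21 alternative settings that gave it a value, with fitted log2 differences of -1.57 to -0.88 and an adjusted p of at most 1.36e-04. All 3 dexamethasone signals were under 200, so the size of the fall has only a bound.

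In incubated against fresh tissue 7 of the 8 genes were called lower and Gap43 in neither direction, while 40.7% of all genes tested were called lower and 36.0% higher. The median log2 difference of the 8 was -4.02, against -0.04 over all genes, and it was -2.25 as a ratio with signals under 200 set to 200. Of the 8, Nefl, Nefm, Nefh, Snap25, Stmn2 and Tubb3 passed the filter through the fresh arrays alone and so had to be lower in culture, while Gap43 and Uchl1 also reached 200 on cultured arrays. With no filter the 7 genes called were the same ones, where 30.6% of 18193 genes were called lower. In dexamethasone against fresh tissue all 8 genes were called lower, against 42.7% of all genes called lower and 35.4% higher. The comparisons against fresh tissue share the fresh arrays, so their values are given side by side and not as separate evidence.

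**Figure D2:**
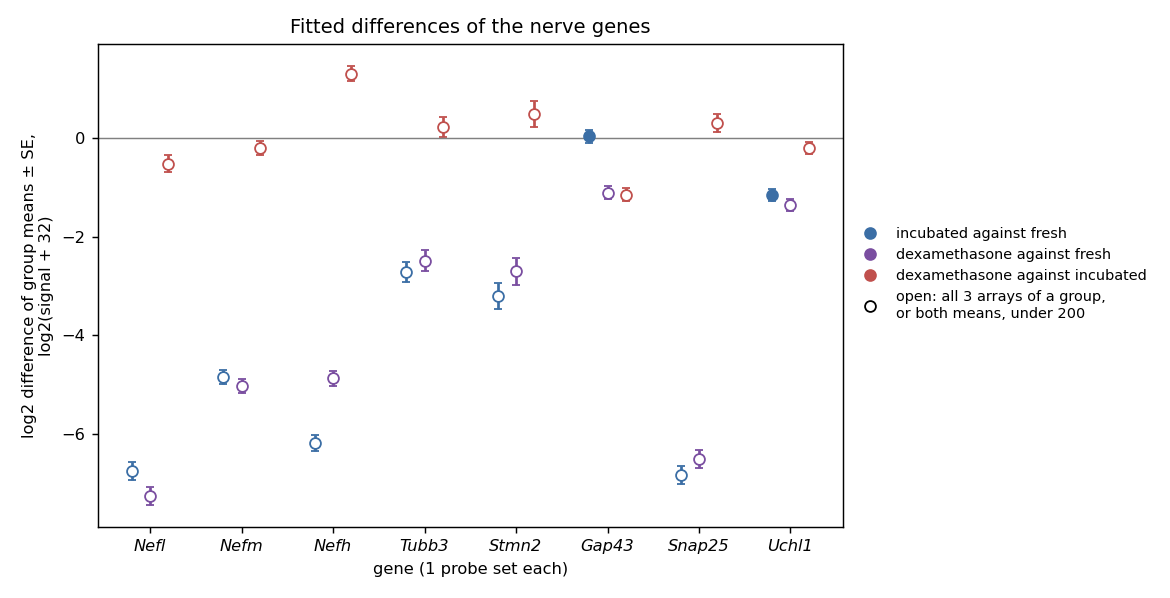
Fitted log2 difference of group means with its standard error for each of the 8 nerve genes in 3 comparisons that share arrays. Open points have all 3 arrays of a group, or both group means, under a signal of 200. Gap43 sits at 0.05 for incubated against fresh and at -1.15 for dexamethasone against incubated, while Nefl, Nefm, Nefh and Snap25 lie between -4.85 and -7.27 in both comparisons with fresh tissue.

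Dexamethasone against incubated tissue gave few usable differences among these genes, because 6 of the 8 lay under 200 in both groups. Of the 8 genes, 2 were called lower (Gap43 and Nefl) and 1 higher (Nefh), while 28.7% of all genes were called lower and 22.3% higher. The Nefh arrays did not overlap, with 79 to 85.2 on dexamethasone and 6.3 to 27.7 on incubated arrays, and the call (adjusted p = 2.20e-05) held in all 22 alternative settings, yet every one of these signals was under 200 and no fold is given. The Nefl arrays overlapped (adjusted p = 0.0276), its second probe set was not called (adjusted p = 0.335), and the call was lost in 8 of the 22 settings. Those included no filter (adjusted p = 0.0595) and leaving out dexamethasone array A (0.0620) or B (0.0574) or incubated array A (0.0757) or C (0.115). For Nefm, Snap25, Stmn2 and Tubb3, also under 200 in both groups, the adjusted p was 0.280, 0.163, 0.139 and 0.369.

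How the arrays were scaled set the balance of calls over all genes but not the direction of the falls above. Incubated against fresh tissue gave 4171 genes lower and 3691 higher as deposited, 2504 lower and 5649 higher with median centring (median of all genes 0.29), and 2395 lower and 5545 higher with hybridization-control scaling (median 0.29). Dexamethasone against incubated tissue gave 2937 lower and 2280 higher as deposited, 4248 and 1411 with median centring (median -0.15), and 8074 and 393 with hybridization-control scaling (median -0.50). Dexamethasone against fresh tissue gave 4375 lower and 3625 higher as deposited, 3264 and 4776 with median centring (median 0.14), and 5049 and 2702 with hybridization-control scaling (median -0.21). Nefl, Nefm, Nefh, Tubb3, Stmn2, Snap25 and Uchl1 stayed lower than fresh under each of these scalings.

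Wider gene lists of the same pathways were read next, as counts of tested genes in incubated against fresh tissue. Over all genes tested, 40.7% were called lower and 36.0% higher in that comparison. Among 15 SNARE and synaptic vesicle genes 13 fell and 2 rose (median -2.00), and 7 of the 13 reached 200 on no cultured array, so that the filter fixed their direction. Complexin 1 (Cplx1), which clamps the SNARE complex, fell at least 31.4-fold (adjusted p = 1.32e-11), and Vamp1, a vesicle SNARE gene, fell at least 11.0-fold (adjusted p = 9.01e-12). Snap91, a clathrin adaptor gene, was at least 4.91-fold lower (adjusted p = 4.79e-10). The neuronal dynamin gene Dnm1, which pinches vesicles from the membrane, averaged 196 ± 38.9 on incubated and 2055 ± 41.1 on fresh arrays (SD, n = 3). Snap23, the relative of Snap25 that most non-neuronal cells use, was among the 2 that rose, with 1281 ± 33.6 on incubated and 409 ± 33.8 on fresh arrays (SD, n = 3; adjusted p = 1.38e-09). The other was the syntaxin gene Stx1a, with 1238 to 1285 on dexamethasone, 907 to 966 on incubated and 623 to 676 on fresh arrays.

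Among 15 growth cone and axon growth genes 9 fell, 3 of them with no cultured array at 200, and 4 rose (median -0.74), while under median centring or hybridization-control scaling 9 fell and 6 rose. Stmn3, another stathmin gene, fell at least 22.9-fold (adjusted p = 1.01e-12), as did Cntn1, an axonal adhesion gene, by at least 15.8-fold (adjusted p = 4.32e-12). Stmn1 and Dpysl2, regulators of microtubules that many cell types make, kept 27.9% and 28.9% of their fresh signal. Basp1, which like Gap43 encodes a protein of the inner growth cone membrane and was chosen here after its value was seen, rose by 2.10 ± 0.074 (adjusted p = 7.09e-11), with 7308 to 7737 on incubated and 1634 to 1824 on fresh arrays.

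Of 8 other tubulin genes tested, most of them broadly expressed, 6 rose and 1 fell (median 0.77), and under median centring or hybridization-control scaling 7 rose and 1 fell. Tubb6 rose at least 16.8-fold (adjusted p = 2.06e-14), Tubb5 was 3.17-fold higher (adjusted p = 3.24e-11) and Tubb2a 2.11-fold higher (adjusted p = 1.71e-09). Tubb4b was 2.44-fold higher (adjusted p = 8.01e-10), though its second tested probe set was called in neither direction. Of 4 other intermediate filament and linker genes, 2 fell and 2 rose. Ina, a neuronal filament gene, fell at least 3.18-fold (adjusted p = 2.45e-10). Dst, a filament linker gene, fell by 1.86 ± 0.086 (adjusted p = 8.17e-10). The filament genes of non-neuronal and progenitor cells, Vim (0.95 ± 0.057, adjusted p = 9.51e-09) and Nes (1.10 ± 0.17, adjusted p = 7.18e-05), rose.

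Markers of neuronal cell bodies and of other cells next to the membrane were set beside the nerve genes, since the hand dissection could carry over fibres or neighbouring tissue. Of 18 genes of the neuronal nucleus and cell body, 2 had a mean of at least 200 in incubated tissue, against 15 in fresh tissue. All 14 tested fell (median -3.13), but 11 of these reached 200 on no cultured array and so had to fall. With no filter all 18 were called lower, where 30.6% of all genes were. Rbfox3, the splicing factor known as NeuN, had 20.7 to 27.8 on incubated and 899 to 966 on fresh arrays and fell at least 4.69-fold (adjusted p = 3.74e-11). Elavl2, an RNA-binding protein gene, was at least 2.68-fold lower (adjusted p = 5.31e-10) and Chgb, a secretory granule gene, at least 8.41-fold lower (adjusted p = 2.70e-10). Their summed signal was 12216 to 13064 on dexamethasone, 11932 to 12943 on incubated and 22274 to 23036 on fresh arrays. Most of that sum was Bex1, with 10988 to 11810 on dexamethasone, 10842 to 11808 on incubated and 12124 to 12985 on fresh arrays, a gene that other cell types make too. Under median centring 13 fell and 1 rose, and under hybridization-control scaling 12 fell and 1 rose.

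Of 12 spiral ganglion and cochlear afferent markers tested, 11 fell and the neurotrophin receptor gene Ntrk2 was not called (median -3.75), with 11 falls and 1 rise under median centring and hybridization-control scaling. All 11 had no cultured array at 200 and had to fall. With no filter 18 of the 20 markers on the array were called lower and 1 higher, where 30.6% of all genes were lower. The calcium-binding protein gene Calb2 fell at least 34.6-fold (adjusted p = 3.96e-12) and Pvalb at least 21.0-fold (adjusted p = 2.71e-12), and both are also made by other cochlear cells. The transcription factor genes Isl1 and Gata3 fell at least 7.02-fold and 4.42-fold (adjusted p at most 8.71e-11). The summed signal of the 20 markers on the array was 1757 to 1810 on dexamethasone, 2162 to 2255 on incubated and 21082 to 22134 on fresh arrays, and incubated tissue kept 10.3% of it. Ntrk2 alone, with means of 1473 in incubated and 1538 in fresh tissue, carried most of what was kept, and without it the markers kept 3.72%. Of the vesicular glutamate transporter genes in the list, Slc17a6 had 45.2 to 61.1 on dexamethasone, 72.7 to 101 on incubated and 402 to 488 on fresh arrays. Slc17a7 stayed under 200 everywhere, with 17.2 to 26.3 on dexamethasone, 3.4 to 21.3 on incubated and 47.9 to 62.3 on fresh arrays.

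Glial markers moved both ways. Of 9 myelin and Schwann cell markers tested 6 fell and 3 rose (median -0.30), where 40.7% of all genes fell and 36.0% rose. Under median centring or hybridization-control scaling 3 markers fell and 3 rose. In each group 9 of the 12 markers on the array had a mean of at least 200, and their summed signal was 26815 to 28578 on dexamethasone, 22993 to 25224 on incubated and 44730 to 45360 on fresh arrays. S100b, a calcium-binding protein gene of glia and other cochlear cells, had 181 to 268 on incubated and 14329 to 15150 on fresh arrays and accounted for much of that gap. The Schwann lineage factor Sox10, also made by other inner ear cells, kept 68.6% of its fresh signal (-0.54 ± 0.060, adjusted p = 2.86e-06). Pmp22 had 2122 to 2224 on incubated and 2370 to 2693 on fresh arrays. Mal kept 80.9% of its fresh signal, though its second tested probe set was called higher. The 3 that rose were Mbp, Egr2 and Ngfr. Their means were 3612, 680 and 306 in incubated tissue and 3340, 471 and 212 in fresh tissue, in that order.

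Markers of non-neuronal neighbours fell in the same comparison, where 40.7% of all genes tested were called lower and 36.0% higher. All 7 supporting cell markers tested fell (median -3.44), as did 8 of 9 fibrocyte markers (median -3.93), all 5 strial marginal cell markers (median -1.75), all 4 melanocyte and strial intermediate cell markers (median -2.05) and all 3 hair cell markers (median -1.89). Of those that fell, 2 supporting cell, 1 fibrocyte, 1 strial marginal, 2 melanocyte and 2 hair cell markers reached 200 on no cultured array. Summed over the list, incubated tissue kept 10.2% of the fresh signal of supporting cell markers, 23.0% of fibrocyte markers, 31.4% of strial marginal markers and 42.5% of hair cell markers. Without the gene of highest incubated signal in each list, the share was 8.85% for supporting cell markers (without Otoa), 7.77% for fibrocyte markers (without Cav1), 20.5% for strial marginal markers (without Lrp2) and 14.0% for hair cell markers (without Myo6), so the order of these lists depends on single genes. Gjb6, a gap junction gene of supporting cells, was at least 32.2-fold lower, and Coch, the cochlin gene of fibrocytes, at least 79.6-fold lower (adjusted p at most 1.89e-14). The genes listed as epithelial markers of the membrane were higher, and all 9 tested rose (median 1.39). With no filter 9 of the 10 on the array were called higher and 1 lower. Their summed signal was 98552 to 104130 on dexamethasone, 86094 to 90201 on incubated and 36161 to 37830 on fresh arrays. Which epithelial cells made these transcripts was not tested. The part of any of these cell types in the nerve gene result was not tested, and carried-over axons and adjoining tissue cannot be told apart as sources of the nerve transcripts in these arrays.

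**Figure D3:**
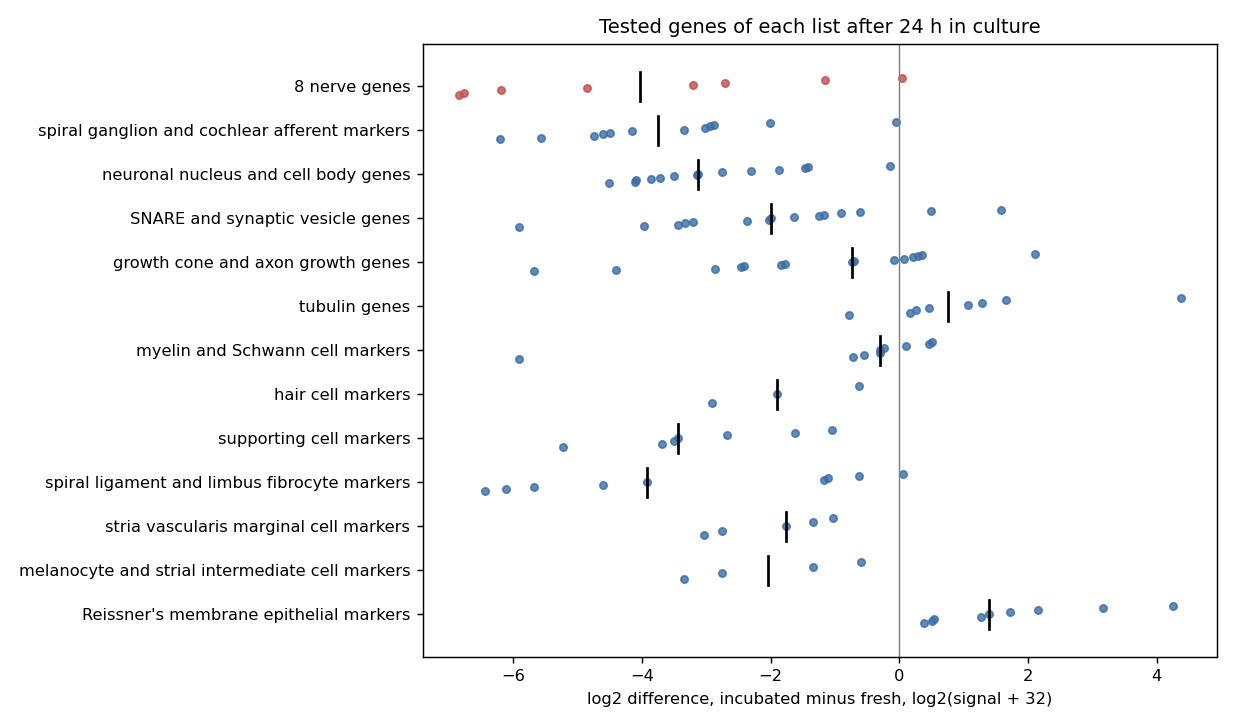
Log2 difference of incubated minus fresh tissue for each tested gene of 13 lists, 1 point per gene, with a bar at the list's median. The medians were -4.02 for the nerve genes, -3.75 for spiral ganglion, -3.44 for supporting cell, -3.93 for fibrocyte and 1.39 for epithelial markers. With signals under 200 set to 200 they were -2.25, -2.37, -2.58, -3.72 and 1.41, and the differences between lists were not tested.

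The genes whose profile over the 9 arrays was nearest to the mean of Nefl, Nefm and Nefh were found by Euclidean distance between centred log2(signal + 32) profiles. They were Otor (distance 0.548, r = 0.9991), an inner ear fibrocyte gene, A2m (0.693, r = 0.9979), a protease inhibitor gene, Bpifa1 (0.754, r = 0.997), a secreted epithelial protein gene, Asic3 (0.760, r = 0.9977), an acid-sensing channel gene of sensory neurons, and S100b (0.847, r = 0.9948). All 5 had fresh signals of 1599 to 15150 and cultured signals of 1.5 to 322. The Pearson's r is over 9 arrays in 3 groups that share a large step between culture and fresh tissue, and is a description. Among the nerve genes outside that mean, the distance was 1.43 for Snap25, 4.19 for Stmn2, 4.66 for Tubb3, 6.50 for Uchl1 and 7.71 for Gap43. Most cultured signals behind these distances were under 200, so they depend on the value added before the log and give no fine order.

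**Figure D4:**
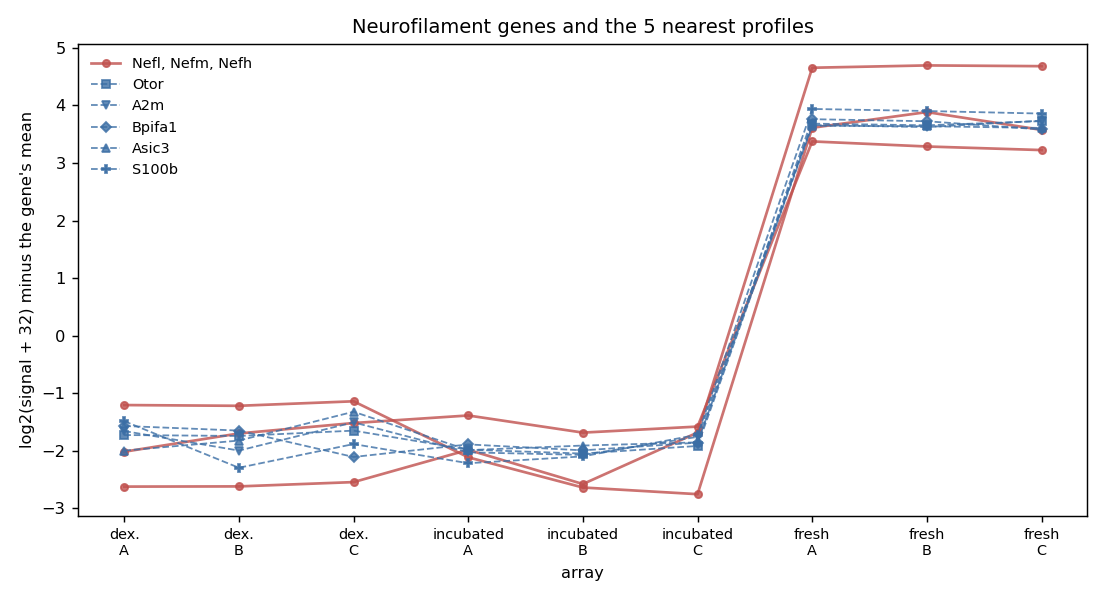
Log2(signal + 32) minus the gene's own mean on each of the 9 arrays for Nefl, Nefm and Nefh (solid) and the 5 genes nearest to their mean profile (dashed). On every profile the 3 fresh arrays lie above the 6 cultured ones, whose scatter is mostly of signals under 200.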

How the data were processed

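Adult mouse Reissner's membrane RNA was hybridised to 9 Affymetrix arrays after small-sample amplification with a repeated transcription step, per the labels' protocols. Each deposited value is a linear intensity for 1 probe set. Per the labels, the authors set the target signal of each array to 500 using every probe set, and applied a factor of 1 for normalization. The summarising software is not given in the sources used here. Of 45101 probe sets, 64 were controls, 34945 had 1 gene symbol, 932 several and 9160 none in the platform annotation, with symbols updated through gene IDs.

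Signals were analysed as log2(signal + 32) in limma 3.58.1 (R 4.3.3), with 1 mean per group, eBayes with a trend and Benjamini-Hochberg adjustment over the 18913 probe sets that reached 200 on at least 3 arrays. The tested probe set that was brightest on average (mean log2) stood for its gene. The fit was tested on simulated data. Sequences came from RefSeq (GRCm38.p6), and tables and figures used data.table (1.17.8), Python 3.11.15, pandas 2.3.3, NumPy 2.4.6 and matplotlib 3.10.9.

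The 8 genes and all lists were chosen with earlier results of these data known. Besides the 8 genes, the text names up to 4 genes per list with the smallest adjusted p for incubated against fresh tissue, up to 2 for dexamethasone against incubated, and the 5 nearest profiles, passing over genes under 200 in both groups. Basp1, Bex1, Cav1, Egr2, Mbp, Ngfr, Slc17a6, Slc17a7, Sox11 and Stx1a are named outside that rule, with their values known. Lrp2, Stmn1, Stmn3, Stx1a, Tubb2a and Vim were read from _s_at or _x_at probe sets, a class open to cross-hybridization. Alternatives were other scalings, pseudocounts, filters and fits, and each array left out.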

Additional observations from a re-analysis of the deposited data

How the results depend on the processing

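The 8 genes and the counts were recomputed under 22 alternative settings. No direction of a called change reversed. Over both comparisons with fresh tissue, and for Gap43 and Uchl1 with dexamethasone, 385 values kept their side of the threshold and 4 crossed it, the Gap43 and Uchl1 values under other scalings given above. For dexamethasone against incubated tissue, where no fold is given for the other genes, Nefl lost its call in 8 of 22 settings, Nefm was called lower with hybridization-control scaling (adjusted p = 0.0184), and Snap25 (0.0402) and Stmn2 (0.0113) were called higher without dexamethasone array B. For incubated against fresh tissue 5 to 8 of the 8 genes were called, and the log2 differences ranged from -7.93 to -5.67 for Nefl, -9.26 to -5.44 for Snap25, -1.27 to -0.83 for Uchl1 and -0.01 to 0.37 for Gap43. For dexamethasone against incubated tissue 2 to 5 genes were called, with 5 under hybridization-control scaling. For dexamethasone against fresh tissue a floor of 400 left 5 genes called, because it removed Gap43, Stmn2 and Tubb3 from the test. Array letters are shared between groups. Between groups, residuals correlated at -0.06 to 0.16 for same-letter arrays and at -0.16 to 0.15 for arrays of different letters. No pairing by letter was seen, but 3 arrays a group are too few to exclude one. With the letter as a replicate block, 7 genes were called for incubated against fresh, 3 for dexamethasone against incubated and 8 for dexamethasone against fresh, as without it. Signals near or under 200 limit what can be said of Tubb3, Stmn2, Gap43 and every cultured neurofilament signal.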

Other observations

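Some other genes of the nerve-related lists differed between dexamethasone and incubated tissue. Which cells made these transcripts was not tested. The neural adhesion gene Ncam1, like Gap43 a gene of growing axons, went the other way: it had 758, 877 and 980 on dexamethasone arrays, 173, 183 and 199 on incubated arrays, and 311, 316 and 333 on fresh arrays, and rose at least 4.36-fold against incubated tissue (adjusted p = 1.62e-08). The neurotrophin receptor gene Ntrk2 averaged 853 ± 84.9 on dexamethasone and 1473 ± 26.3 on incubated arrays (SD, n = 3) and fell by 0.77 ± 0.085 (adjusted p = 1.15e-05). Of its 2 other tested probe sets only 1 was also called lower. Snap23 averaged 863 ± 62.1 on dexamethasone and 1281 ± 33.6 on incubated arrays and fell by 0.56 ± 0.077 (adjusted p = 7.13e-05), though its second tested probe set was not called. Of 15 growth cone genes 5 were lower and 7 higher with dexamethasone as deposited, where 28.7% of all genes were lower and 22.3% higher. Under hybridization-control scaling 9 were lower and 2 higher, where 8074 of 10261 genes were lower, and the calls of Ncam1, Ntrk2 and Snap23 stayed in place.

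Of 7 nerve injury and regeneration genes tested, 5 rose and 1 fell in incubated against fresh tissue, where 36.0% of all genes rose. For 3 of the 5 no fresh array reached 200, so they had to rise. Sox11, a transcription factor gene of regrowing neurons, fell to 2741 ± 91.5 on incubated arrays, against 4249 ± 88.5 on fresh arrays (SD, n = 3; adjusted p = 6.36e-07). The rises included Sprr1a (at least 9.72-fold higher, adjusted p = 4.53e-13) and the transcription factor genes Jun (2.23 ± 0.060) and Atf3 (at least 3.76-fold higher), all of which other stressed cells also make. With dexamethasone against incubated tissue 3 of the 7 were lower and 2 higher, where 28.7% of all genes were lower and 22.3% higher. Under hybridization-control scaling 5 of 8 tested were lower and 1 higher, where 8074 of 10261 genes were lower, so not both of the rises below were kept. Sprr1a fell by 1.74 ± 0.094 (adjusted p = 3.54e-08) and Sox11 by 0.45 ± 0.059 (adjusted p = 4.25e-05). Sox4 fell by 0.84 ± 0.067 (adjusted p = 8.57e-07) on its brightest probe set, while its 2 other tested probe sets were not called. Jun rose by 0.72 ± 0.060 (adjusted p = 1.25e-06) and Atf3 by 0.68 ± 0.19 (adjusted p = 0.0103).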
